A study of Mus musculus with 4 samples.

Results

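The 8 genes described here set apart an epithelial cell from a mesenchymal one by how it adheres to its neighbours, how it splices its transcripts and which filaments it builds. They are Cdh1, Epcam, Esrp1, Esrp2, Cdh2, Vim, Zeb1 and Zeb2. They were matched by symbol, and all 8 were found among the 23990 genes of the joined table. The choice was made with earlier results of these data known. Of these 8, 7 had a mean of at least 1 FPKM (fragments per length and sequencing depth) over the libraries and were tested. Zeb1 lay below that minimum, and its values are given without a test.

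RNA was sequenced from alveolar type 1 (AT1) cells, the flat cells of the gas-exchange surface, sorted from mouse lungs at postnatal day 3 or 4 on a mixed B6 and 129 background. All animals carried Scnn1a-Cre, a Cre recombinase expressed from the Scnn1a gene. Libraries labelled Sox2 (n = 2) carry the genotype label Scnn1a-Cre; Rosa[Sox2/+], in which Cre switches on a transgene for the transcription factor Sox2. Libraries labelled control (n = 2) carry the label Scnn1a-Cre; Rosa[mTmG/+], with a membrane reporter in its place. Groups were taken from the labels, and the lungs were of littermates, but whether each library came from its own animals is not stated. The p-values below therefore reflect the spread between libraries alone, which may be technical.

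The Sox2 transcript itself ran against the labels. It stood at 1.41 and 1.99 FPKM under the Sox2 label and at 302.4 and 477.5 FPKM under the control label. Its log2 difference was -7.15 (SE 0.34, limma adjusted p = 2.39e-06). Every direction below follows the labels as deposited, written as Sox2 label minus control label, and so runs opposite to the level of the Sox2 transcript. Whether the labels of the groups were exchanged, which would turn every direction, was not tested. Between 11062 and 12096 genes reached 1 FPKM per library, and the deposited bounds had a median half-width of 7.82% to 12.4% of the value. Of 11 AT1 markers, 9 were higher under the Sox2 label, against 4.2% of all tested genes, and none was at 0. Their sum was 7010 and 8252 FPKM there against 1634 and 845 FPKM. All 8 markers of alveolar type 2 (AT2) cells, which make surfactant, were also higher there, with sums of 25877 and 17960 FPKM against 6105 and 987 FPKM. The AT2 sum was thus above the AT1 sum in each library, and the share of AT1 cells was not tested. In bulk RNA, fewer cells of a type and less RNA per cell cannot be told apart.

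As background, E-cadherin (Cdh1) joins epithelial cells at adherens junctions, and EpCAM is an adhesion protein of most epithelia. ESRP1 and ESRP2 are RNA-binding proteins that impose the epithelial pattern of exon choice on transcripts such as those of Fgfr2, Cd44 and Ctnnd1. ZEB1 and ZEB2 are zinc-finger repressors that bind E-box sequences at epithelial genes, among them Cdh1, Epcam and Esrp1, and drive epithelial-mesenchymal transition (EMT). N-cadherin (Cdh2) and the intermediate filament protein vimentin (Vim) are the usual marks of the mesenchymal state. The microRNAs of the miR-200 family are made in epithelia and repress both Zeb transcripts, which in turn repress the genes of these microRNAs.

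The mature miR-200 sequences are shown because their seeds set which of the 8 transcripts they can pair with. They are from RefSeq on build GRCm38.p6, read 5′ to 3′, with the seed (bases 2 to 8) in capitals.
miR-200b-3p: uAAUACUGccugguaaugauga
miR-200c-3p: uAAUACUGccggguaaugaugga
miR-429-3p: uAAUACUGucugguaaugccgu
miR-200a-3p: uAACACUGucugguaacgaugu
miR-141-3p: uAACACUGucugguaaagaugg
The first 3 share the seed AAUACUG, which pairs with CAGTATT, and the other 2 share AACACUG, which pairs with CAGTGTT. In the annotated 3′ untranslated region of the longest coding transcript, counted on the transcript strand, Zeb1 held 5 matches to CAGTATT and 4 to CAGTGTT in 2401 bases. Zeb2 held 5 and 3 in 1450 bases, and Esrp1 held 1 of each in 1471 bases. The other 5 genes, Cdh1, Epcam, Esrp2, Cdh2 and Vim, held no such letters there. At least 1 match was found in 23.6% of 21173 genes, and as many as in Zeb1, Zeb2 and Esrp1 in 0.00945%, 0.0378% and 7.04% of them. Counted per length, as many matches were found in 0.671%, 0.345% and 4.09% of genes. A match is a description of the sequence and not a measured site. The hairpin genes of this family and Mir205, 6 in all, were listed at 0 FPKM in all 4 libraries, which were made from poly-A RNA, so the files hold no measure of these microRNAs.

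The promoter of Epcam is shown because Epcam differed most between the labels among the tested members. The 250 bases before its start lie at chr17:87635729-87635978 on the plus strand of GRCm38.p6 (RefSeq), and capitals mark the E-box letters CAGGTG, or CACCTG on the other strand.
Epcam: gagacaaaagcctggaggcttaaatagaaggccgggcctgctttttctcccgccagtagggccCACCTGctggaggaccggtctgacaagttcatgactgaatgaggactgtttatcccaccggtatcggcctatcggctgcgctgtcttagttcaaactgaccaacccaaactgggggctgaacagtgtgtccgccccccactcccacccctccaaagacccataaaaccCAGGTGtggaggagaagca
The E-box began 187 and 19 bases before the start site. Of 32817 promoters of this length, 17.2% held at least 1 such E-box and 2.07% held 2 or more. The letters ACAATG or CATTGT, a core that Sox proteins bind, were not in this window, and 10.7% of promoters held them. The matched windows of Vim (1 start) and Zeb2 (4 starts) held neither motif. Cdh1, Esrp1, Esrp2, Cdh2 and Zeb1 had no entry.

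Over the 7 tested genes, Epcam and Esrp1 were lower under the Sox2 label and none was higher. Of all 12040 tested genes, 8.11% were lower, 4.2% were higher and 12.3% differed in either direction (limma, Benjamini-Hochberg adjusted p under 0.05). The groups did not overlap for 5 of the 8 genes, with Cdh1, Epcam and Esrp1 lower and Esrp2 and Zeb1 higher under the Sox2 label. Among all tested genes the groups did not overlap for 58.1%, with 42.5% lower and 15.7% higher. That count is near the background and shows nothing about these genes. Over all tested genes, the log2 difference had a median of -0.29. Rescaling the libraries by the median of ratios brought it to 0.00, and the split of calls went from 506 higher and 976 lower to 964 higher and 686 lower. Epcam and Esrp1 passed the threshold under that rescaling too, with log2 differences of -1.53 and -0.92 (limma adjusted p = 0.0181 and 0.0451).

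**Figure D1:**
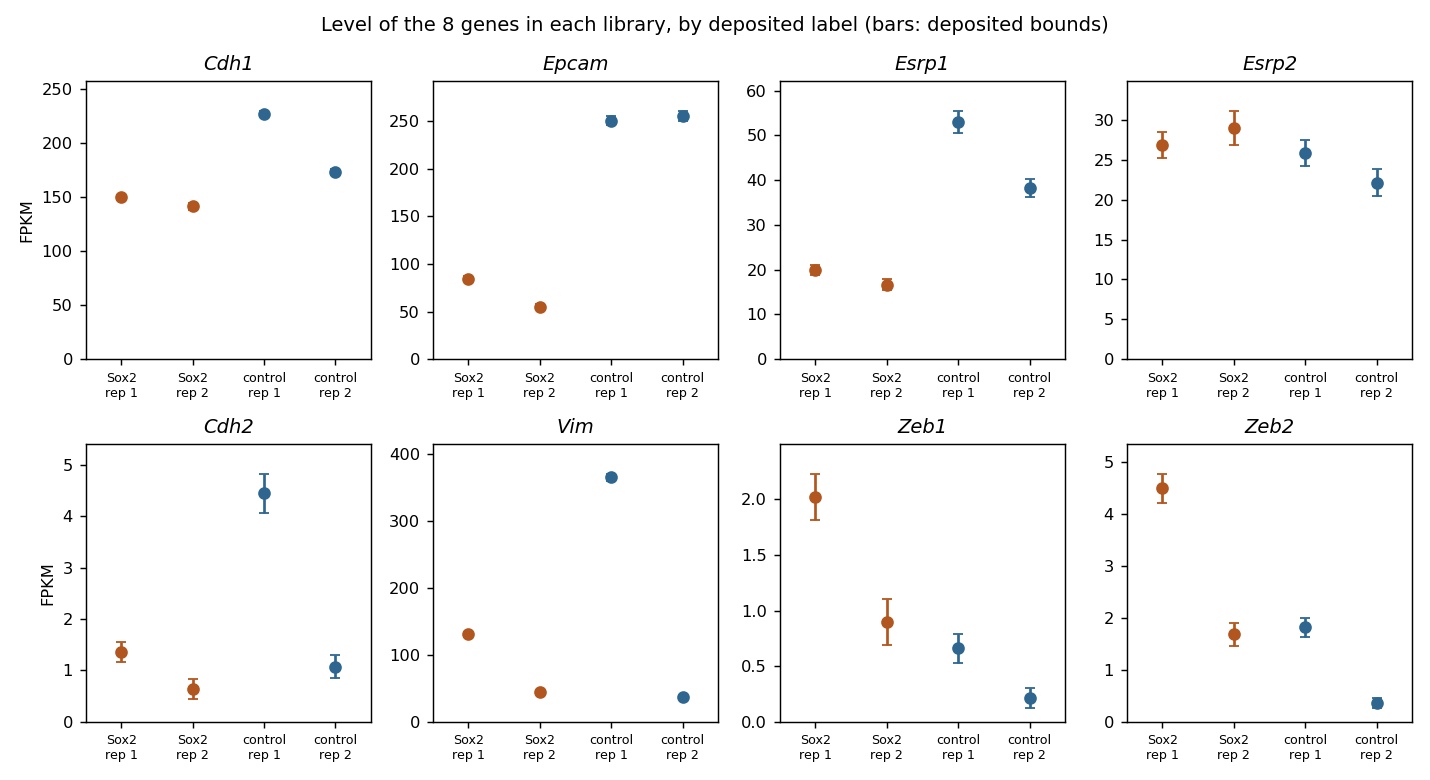
Level of each of the 8 genes in the 4 libraries, in FPKM on a linear axis from 0, with the deposited lower and upper bounds as bars (orange, labelled Sox2; blue, labelled control; rep, replicate). Epcam stood at 84.7 and 55.0 FPKM under the Sox2 label against 250.9 and 255.8 FPKM, while Vim spread from 37.3 to 364.8 FPKM withunder the control label.

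Both epithelial adhesion genes were abundant, but only Epcam passed the test between the labels. Cdh1 (chr8:106603368-106670246 in the authors' mm10 coordinates, 16 exons) stood at 149.4 and 141.1 FPKM under the Sox2 label and at 226.6 and 172.9 FPKM under the control label. Each value lay among the 339 highest of its library, and the half-width of its deposited bounds was at most 2.12% of it. Both libraries labelled Sox2 were below both labelled control. The log2 difference of Cdh1 was -0.44 (SE 0.31, 95% interval -1.12 to 0.24, limma adjusted p = 0.372). It was -0.25 without labelled control replicate 1 and -0.09 after median-of-ratios rescaling. The interval of Cdh1 holds 0 and also differences as large as -1.12.

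Epcam (chr17:87635979-87651127, 9 exons) stood at 84.7 and 55.0 FPKM under the Sox2 label and at 250.9 and 255.8 FPKM under the control label. Its rank by level went from 227 and 198 under the control label to 598 and 781 under the Sox2 label. Epcam was thus above Cdh1 in both libraries labelled control, and below it in both labelled Sox2. Mean Epcam was 3.63-fold higher under the control label, and 2.99-fold to 4.61-fold with any single library left out. The log2 difference was -1.88 (SE 0.32, 95% interval -2.59 to -1.17, limma adjusted p = 0.00528). With 1 library left out it ran from -2.18 to -1.57, and the call was not kept in every such fit. The call was lost when genes of any level were tested (limma adjusted p = 0.0851).

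Esrp1 and Esrp2 encode related splicing regulators with overlapping targets, and only Esrp1 passed the test between the labels. Esrp1 (chr4:11331933-11386783, 16 exons) stood at 19.8 and 16.6 FPKM under the Sox2 label and at 53.0 and 38.3 FPKM under the control label. Esrp2 (chr8:106131183-106136974, 15 exons) stood at 26.9 and 29.0 FPKM against 25.9 and 22.1 FPKM. Esrp1 was the higher of the pair in both libraries labelled control, and Esrp2 in both labelled Sox2.

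Mean Esrp1 was 2.50-fold higher under the control label, and 2.10-fold to 2.91-fold with 1 library left out. Its log2 difference was -1.26 (SE 0.33, 95% interval -1.99 to -0.54, limma adjusted p = 0.0310). The direction of Esrp1 held whichever library was left out, with log2 differences from -1.49 to -1.03. Its call was lost in most of these fits. The call was lost with genes of any level (limma adjusted p = 0.105). It was also lost with a variance model that ignores expression level (limma adjusted p = 0.0523). The log2 difference of Esrp2 was 0.21 (SE 0.32, 95% interval -0.48 to 0.91, limma adjusted p = 0.702). It ran from 0.11 without labelled control replicate 2 to 0.32 without labelled control replicate 1, and was 0.56 after median-of-ratios rescaling. In the GENCODE annotation, 338 of the 4340 exonic bases of Esrp2 are shared with Nfatc3 and 1810019D21Rik on the other strand. Reads there cannot be assigned without strand. That gene model starts at 106130319, outside the deposited span, and sharing within the deposited span was not counted.

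Within each library, the ratio of Esrp1 to Esrp2 in FPKM does not depend on how the library was scaled. It was 0.738 and 0.573 under the Sox2 label and 2.05 and 1.73 under the control label. With 1 added to both levels, the mean log2 ratio was -0.59 ± 0.25 (SD, n = 2) against 0.88 ± 0.17 (SD, n = 2), a difference of -1.48. The groups did not overlap, and leaving out any library kept that direction. A test of a single value with 2 against 2 libraries cannot give an exact permutation p below 0.33, so the 5 ratios between members carry none.

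**Figure D2:**
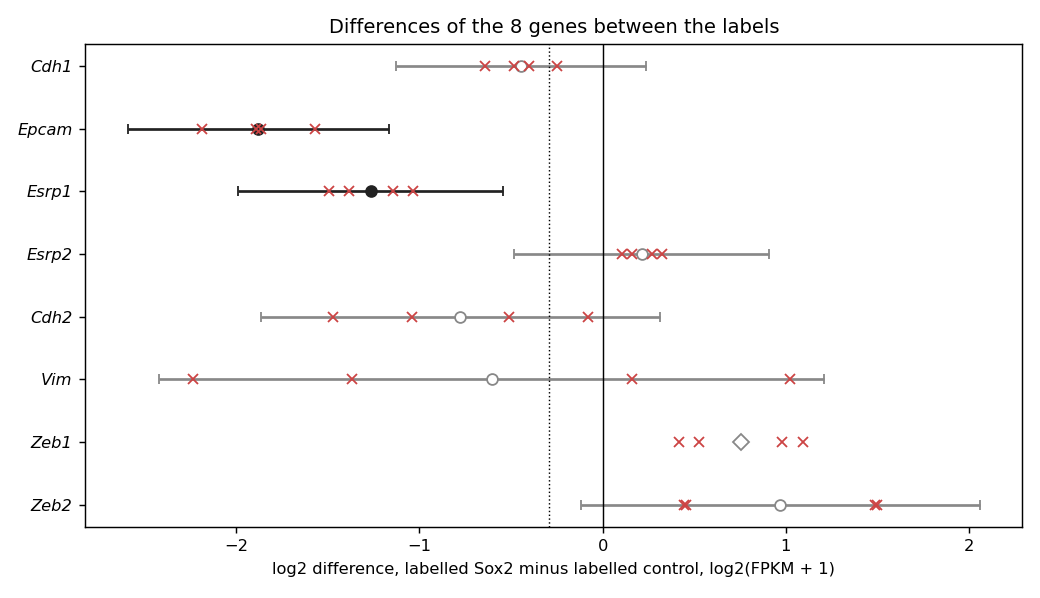
Log2 difference of each of the 8 genes, Sox2 label minus control label, in log2(FPKM + 1), with 95% intervals of the limma model (filled, past the threshold; open, not past it; diamond, Zeb1, not tested), the value with each library left out (red crosses) and the median of all tested genes (dotted line at -0.29). Epcam at -1.88 and Esrp1 at -1.26 lie left of the dotted line with all their crosses, while the crosses of Vim run from -2.23 to 1.02.

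Neither mesenchymal marker passed the test, and in both the libraries labelled control differed widely from each other. Vim (chr2:13574311-13582826, 9 exons) stood at 131.2 and 44.9 FPKM under the Sox2 label and at 364.8 and 37.3 FPKM under the control label. Labelled control replicate 1 held the highest value and labelled control replicate 2 the lowest, so the groups overlapped. The bounds of these Vim values were within 5.93% of the value, far narrower than the gap between replicates. The log2 difference of Vim was -0.60 (SE 0.82, 95% interval -2.42 to 1.21, limma adjusted p = 0.677). It was -2.23 without labelled control replicate 2 (limma adjusted p = 8.54e-06), 1.02 without labelled control replicate 1 (limma adjusted p = 0.0759), and 0.16 when labelled Sox2 replicate 2 was left out. The direction of Vim thus rests on which library is kept.

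Cdh2 (chr18:16588877-16809049, 16 exons) stood at 1.36 and 0.637 FPKM under the Sox2 label and at 4.45 and 1.07 FPKM under the control label. As for Vim, labelled control replicate 1 was the highest, and the other 3 libraries lay close to the 1 FPKM minimum. The log2 difference was -0.78 (SE 0.49, 95% interval -1.87 to 0.31, limma adjusted p = 0.328). Leaving out labelled control replicate 2 gave -1.47, and leaving out labelled control replicate 1 gave -0.08. Cdh1 was far more abundant than Cdh2 in all 4 libraries. The ratio of Cdh1 to Cdh2 in FPKM was 110 and 222 under the Sox2 label and 50.9 and 161 under the control label, and the groups overlapped. The ratio of Epcam to Vim in FPKM was 0.645 and 1.22 against 0.688 and 6.85, so Vim exceeded Epcam in 1 library of each label.

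Both ZEB repressors were at low levels in every library, and Zeb2, the one tested, was not called in the fit over all 4 libraries without a replicate term. Zeb2 (chr2:44983512-45113279, 10 exons) stood at 4.50 and 1.68 FPKM under the Sox2 label and at 1.82 and 0.362 FPKM under the control label. The groups overlapped, since labelled control replicate 1 was slightly above labelled Sox2 replicate 2. The log2 difference of Zeb2 was 0.97 (SE 0.49, 95% interval -0.12 to 2.06, limma adjusted p = 0.217). It was 1.5 without labelled control replicate 1. It was 0.45 when either labelled Sox2 replicate 1 or labelled control replicate 2 was left out. Of the 19942 annotated exonic bases of Zeb2, 658 are shared with other genes, nearly all with the antisense gene Zeb2os. Reads there cannot be told apart without strand. That gene model ends at 45117395, outside the deposited span, and sharing within the deposited span was not counted. Zeb2os stood at 0.800 and 0.302 FPKM against 0.351 and 0.152 FPKM, in the same order of libraries as Zeb2. The half-width of the Zeb2os bounds ran from 38.8% to 124% of the value, so that order is not resolved.

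Zeb1 (chr18:5591860-5775468, 8 exons) stood at 2.03 and 0.896 FPKM under the Sox2 label and at 0.662 and 0.213 FPKM under the control label. Both libraries labelled Sox2 lay above both labelled control, and the half-width of the bounds ran from 10.3% to 41.9% of the value. The untested log2 difference of Zeb1 was 0.75, and 0.42 to 1.09 with 1 library left out. In the fit over genes of any level, where 0.0163% of 18390 genes were called, its limma adjusted p was 0.268. Zeb1 was below Zeb2 in each library, with ratios in FPKM of 0.450 and 0.532 under the Sox2 label and 0.364 and 0.588 under the control label.

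Esrp1, a target of ZEB repression in other systems, was above Zeb1 in each library by a factor that differed between the labels. The ratio of Esrp1 to Zeb1 in FPKM was 9.80 and 18.6 under the Sox2 label and 80.1 and 180 under the control label. With 1 added to both, the mean log2 ratio was 3.00 ± 0.31 (SD, n = 2) against 5.02 ± 0.0047 (SD, n = 2). The difference of -2.02 became -2.88 with 0.1 added in place of 1, since the added value weighs on so low a gene as Zeb1. The SD of 0.0047 also depends on the added 1, as the ratios in FPKM under the control label were 80.1 and 180.

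**Figure D3:**
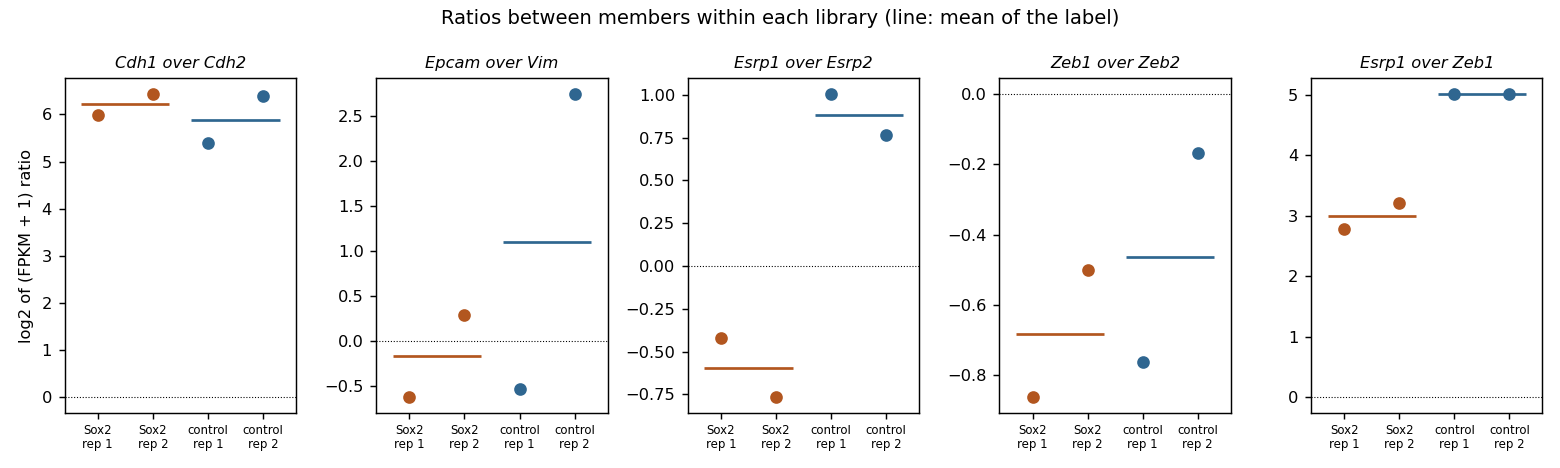
Log2 of the ratio between 2 members, each as FPKM + 1, in every library (orange, labelled Sox2; blue, labelled control; horizontal line, mean of the label; dotted line, equal levels). The groups separate for Esrp1 over Esrp2, on opposite sides of 0, and for Esrp1 over Zeb1, and overlap for the other 3 ratios.

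Markers of non-epithelial cells were present in these sorted libraries, and most did not pass the test between the labels. Their calls are to be set beside the 4.2% of all tested genes that were higher under the Sox2 label. Of 9 endothelial markers, none was at 0, 3 were higher under the Sox2 label and 6 did not pass, with sums of 194 and 136 FPKM against 52.3 and 21.8 FPKM. Esam alone gave 63.3 and 74.5 FPKM against 8.44 and 2.54 FPKM. Of 11 tested fibroblast and mesenchymal markers, 1, Sparc, was higher and 10 did not pass, with sums of 1701 and 1430 FPKM against 707 and 172 FPKM. Sparc alone gave 1344 and 1319 FPKM against 386 and 107 FPKM, and the other 11 listed genes summed to 357 and 111 FPKM against 321 and 65.0 FPKM, so that without Sparc the groups overlapped. Of that list only Lum was at 0 in a library. The tested leukocyte markers numbered 9, with 1 higher and sums of 134 and 67.2 FPKM against 61.9 and 31.2 FPKM. The call was Csf1r, at 27.7 and 25.2 FPKM against 3.02 and 1.03 FPKM. The groups did not overlap for 3 of the 9, against 58.1% of all tested genes. The tested smooth muscle markers numbered 4, with 1 higher and sums of 68.3 and 31.1 FPKM against 31.0 and 9.0 FPKM. Of 2 tested mesothelial markers neither passed, the sums were 95.1 and 88.7 FPKM against 39.5 and 63.0 FPKM, and Wt1 and Lrrn4 were at 0 in a library. Nearly all of these sums was Msln, at 87.6 and 87.5 FPKM against 35.1 and 62.7 FPKM. Zeb1 and Zeb2 had their highest value in labelled Sox2 replicate 1 and their lowest in labelled control replicate 2, as did the endothelial, fibroblast, leukocyte and smooth muscle sums. The sum of the AT2 markers, which are epithelial, had the same extremes, at 25877 and 17960 FPKM against 6105 and 987 FPKM. These extremes are thus not particular to markers of non-epithelial cells. Col1a1, a fibrillar collagen of fibroblasts, had the same order of libraries as Zeb2, at 82.3 and 27.9 FPKM against 38.5 and 10.3 FPKM. Vim and Cdh2 had another order, with labelled control replicate 1 the highest, as had the matrix gene Fn1 at 60.3 and 8.97 FPKM against 193 and 30.8 FPKM. What part other cells have in the values of Vim, Cdh2, Zeb1 and Zeb2 was not tested.

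**Figure D4:**
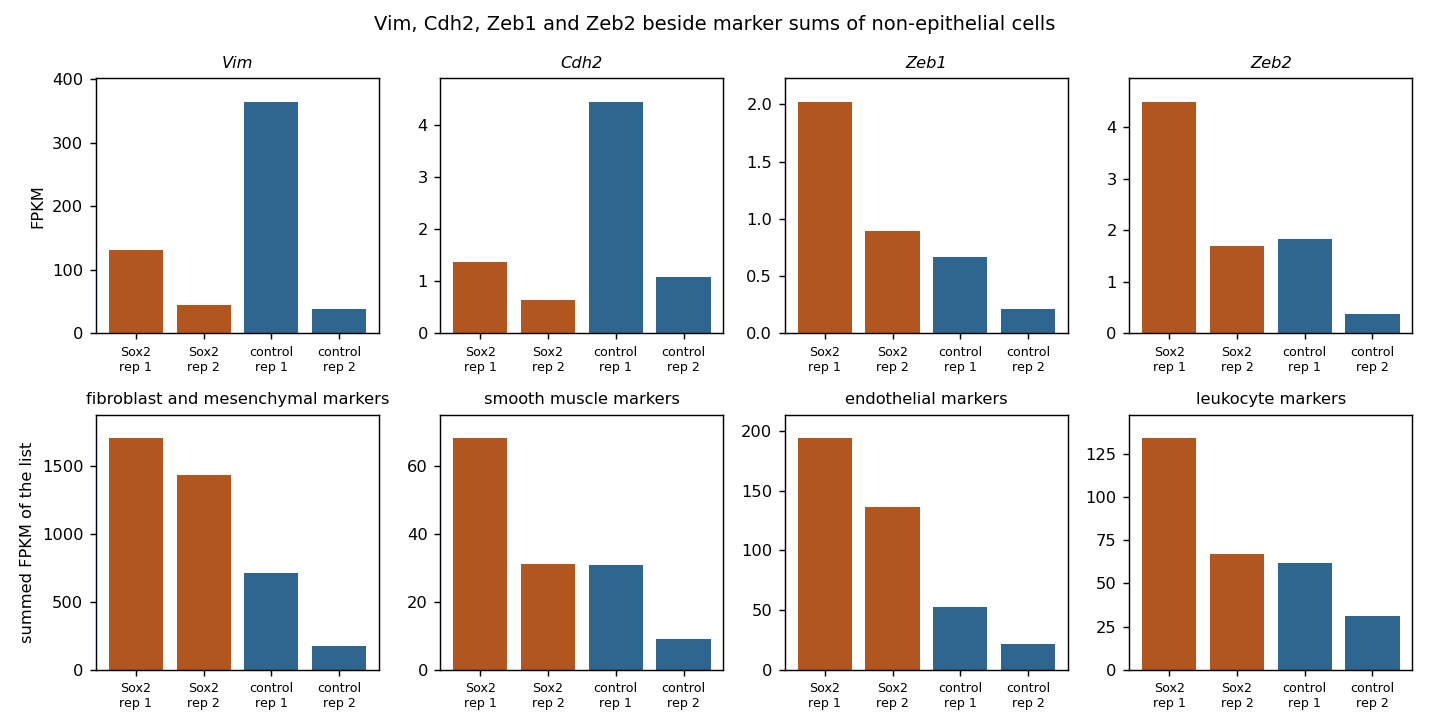
Level of Vim, Cdh2, Zeb1 and Zeb2 (upper row, FPKM) beside the summed FPKM of 4 marker lists of non-epithelial cells (lower row) in the 4 libraries, on linear axes from 0 (orange, labelled Sox2; blue, labelled control). Zeb1, Zeb2 and the marker sums are highest in labelled Sox2 replicate 1 and lowest in labelled control replicate 2, whereas Vim at 364.8 FPKM and Cdh2 at 4.45 FPKM are highest in labelled control replicate 1. The AT2 marker sum, not drawn, has the same extremes as Zeb1 and Zeb2.

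Some markers of basal cells, the stem cells of the airway epithelium, differed as well. Of 3 tested basal markers 2, Trp63 and Dapl1, were lower under the Sox2 label, against 8.11% of all tested genes. The summed level of the list was 2.37 and 1.7 FPKM against 45.5 and 167 FPKM. Dapl1 alone gave 0.234 and 0 FPKM against 41.6 and 150 FPKM, most of the control sums. Trp63 stood at 0.061 and 0.029 FPKM against 2.38 and 14.4 FPKM. Krt5, Krt14 and Ngfr were below 1 FPKM in every library. Krt15, at 1.75 and 1.60 FPKM against 1.46 and 1.43 FPKM, did not pass. Krt5, Krt14 and Dapl1 were at 0 in at least 1 library. Their part in the difference of Epcam and Esrp1 was not tested, nor was that of the AT1 and AT2 marker sums given above.

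Around these 8 genes, 9 lists of partners and relatives were read from the same fit, to be set beside the 4.2% higher and 8.11% lower of all tested genes and their median of -0.29. Among the adherens junction partners of Cdh1, 12 of 14 were tested, 3 were lower, none was higher, and the median log2 difference was -0.15. The catenins that tie E-cadherin to actin, Ctnna1 and Ctnnb1, gave 0.00 and -0.19 and did not pass. Plekha7, which links p120 catenin to microtubules, stood at 3.01 and 2.30 FPKM against 16.7 and 12.4 FPKM (log2 difference -2.08, SE 0.38, limma adjusted p = 0.0070). Ctnnd1, p120 catenin itself and a known ESRP splicing target, stood at 82.1 and 71.2 FPKM against 184 and 153 FPKM (-1.12, SE 0.30, limma adjusted p = 0.0363). Pvrl4, the junction protein nectin-4, stood at 2.46 and 3.33 FPKM against 7.74 and 19.8 FPKM (-1.80, SE 0.46, limma adjusted p = 0.0294), and was at -1.18 without labelled control replicate 2. Under median-of-ratios rescaling Plekha7 stayed past the threshold, and Ctnnd1 and Pvrl4 did not.

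Other cadherins differed in both directions, with 7 of 12 tested, 3 higher, 1 lower and a median of 0.99. Cdh16, known from kidney and thyroid, stood at 21.0 and 12.7 FPKM under the Sox2 label and at 2.82 and 0.225 FPKM under the control label (3.00, SE 0.53, limma adjusted p = 0.0060). Cdh13, a cadherin anchored by a lipid tail, was lower, at 11.5 and 15.1 FPKM against 56.7 and 94.5 FPKM (-2.39, SE 0.35, limma adjusted p = 0.0024). Its log2 difference ran from -2.75 to -2.03 with 1 library left out. Cdh5, the cadherin of endothelial junctions and one of the endothelial markers above, stood at 31.7 and 14.5 FPKM against 9.54 and 3.29 FPKM (1.74, SE 0.50, limma adjusted p = 0.0444). It was at 1.09 without labelled control replicate 2. The remaining call was Cdh4, with a log2 difference of 1.34, named after its value was seen.

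The listed partners of EpCAM at the membrane were all tested, with 3 of 6 lower, 1 higher and a median of -0.77. Cd9, a tetraspanin that associates with EpCAM, stood at 244 and 214 FPKM against 658 and 877 FPKM (-1.73, SE 0.32, limma adjusted p = 0.0079). The tetraspanin Tspan8 went the other way, at 211 and 217 FPKM against 83.4 and 61.4 FPKM (1.57, SE 0.31, limma adjusted p = 0.0098). Cldn7, the claudin that binds EpCAM, stood at 112 and 94.6 FPKM against 202 and 250 FPKM (-1.12, SE 0.31, limma adjusted p = 0.0391) and did not pass under either rescaling. The fourth call, St14, a membrane protease gene with a log2 difference of -1.09, was named after its value was seen.

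**Figure D5:**
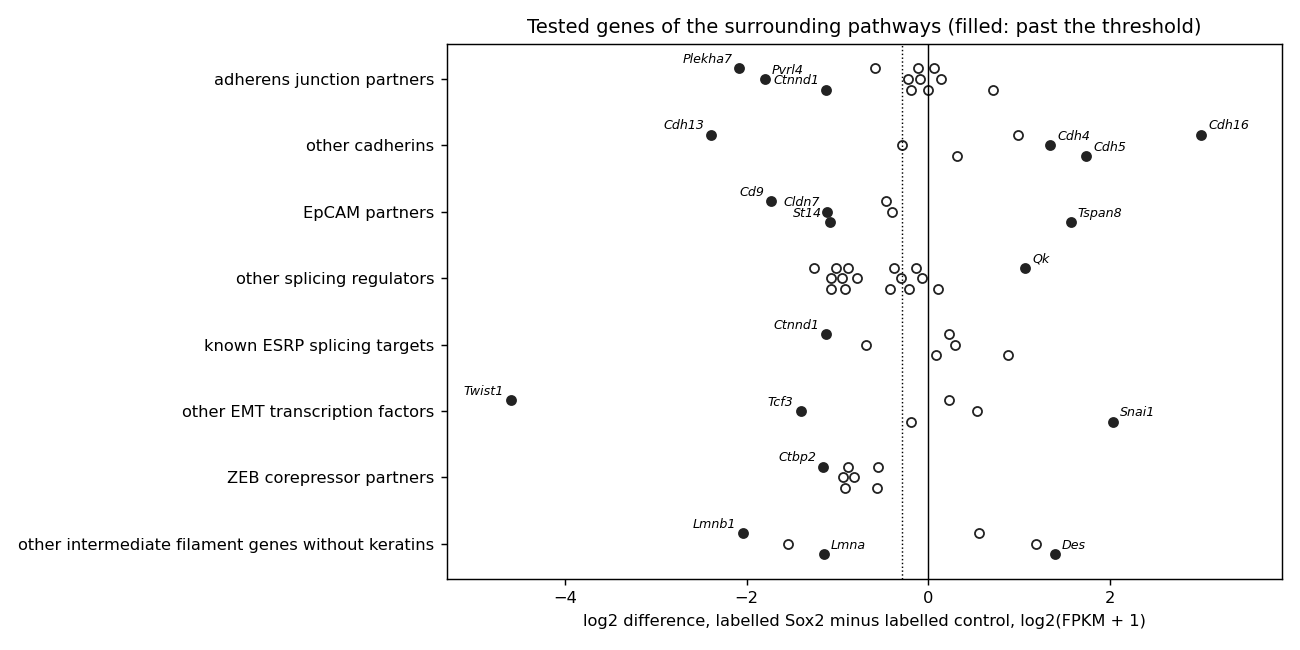
Log2 difference, Sox2 label minus control label, in log2(FPKM + 1), of each tested gene in 8 lists around the members (filled and named, past the threshold; open, not past it; dotted line, median of all tested genes at -0.29; vertical offsets only keep points apart). Calls lie on both sides of 0 in the cadherins, EpCAM partners, EMT transcription factors and intermediate filament genes, from Twist1 at -4.60 to Cdh16 at 3.00.

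On the splicing side, calls apart from Esrp1 were Qk and Ctnnd1. Among the other splicing regulators, 16 of 20 were tested, 1 was higher, none was lower and the median was -0.61. That count of lower genes depends on the fit, with 3 under the robust variance model and 2 when small RNA genes and genes at several positions were left out. Qk, the RNA-binding protein quaking, stood at 111 and 104 FPKM against 56.8 and 45.2 FPKM (1.07, SE 0.30, limma adjusted p = 0.0438). Rbm47, another epithelial RNA-binding protein, had a log2 difference of -1.01 and did not pass (limma adjusted p = 0.0782). Of the 6 known ESRP targets, Ctnnd1 was the only call, and the median was 0.16. Total levels of Fgfr2 and Cd44, which ESRPs act on through exon choice, gave log2 differences of 0.87 and 0.08 and did not pass. The tables hold gene totals, so exon use was not measured here.

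Of the other EMT transcription factors, 6 of 11 were tested, 2 were lower, 1 was higher, and the median was 0.02. Twist1, a helix-loop-helix factor of mesoderm, stood at 0.330 and 0.179 FPKM under the Sox2 label and at 27.8 and 31.0 FPKM under the control label. Its log2 difference was -4.60 (SE 0.38, limma adjusted p = 0.000182), and ran from -4.68 to -4.51 with 1 library left out. Twist1 was thus high in the libraries where Epcam and Esrp1 were high. Snai1, a repressor of Cdh1, went the other way, at 10.2 and 7.53 FPKM against 2.33 and 0.710 FPKM (2.03, SE 0.44, limma adjusted p = 0.0145). Tcf3, which encodes the E proteins that pair with Twist1, stood at 19.7 and 14.6 FPKM against 45.3 and 47.9 FPKM (-1.40, SE 0.32, limma adjusted p = 0.0185).

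The corepressors that ZEB proteins recruit were all tested, with 1 of 7 lower and a median of -0.89. The count was 0 with a variance model that ignores expression level. Ctbp2 was the call, at 18.5 and 14.0 FPKM against 40.7 and 33.8 FPKM (-1.16, SE 0.33, limma adjusted p = 0.0432), and it did not pass under median-of-ratios rescaling. Of the other intermediate filament genes, keratins left out, 6 of 12 were tested, with 2 lower, 1 higher and a median of -0.30. The nuclear lamin genes Lmnb1 and Lmna were the lower ones. Lmnb1 stood at 23.6 and 10.9 FPKM against 90.3 and 53.3 FPKM (-2.04, SE 0.41, limma adjusted p = 0.0107). Lmna stood at 70.7 and 75.5 FPKM against 173 and 155 FPKM (-1.15, SE 0.30, limma adjusted p = 0.0301) and did not pass under either rescaling. Desmin (Des), a muscle filament gene and one of the smooth muscle markers above, stood at 4.81 and 3.77 FPKM against 1.36 and 0.706 FPKM (1.39, SE 0.40, limma adjusted p = 0.0450). The call of Des was lost with 0.1 added in place of 1 (limma adjusted p = 0.0525).

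Of these 17 named calls in the lists, both rescalings kept 12. All 17 were lost when genes of any level were tested.

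For each tested member, the genes with the most similar profile over the 4 libraries were found by the distance between log2 values centred on their own mean. Such a distance over 4 libraries describes likeness and nothing further. Nearest to Cdh1 were Igf2r (distance 0.023) and Med1 (0.027), and nearest to Epcam were E2f8 and Tfap4 (both 0.13). Alg3 (0.063) and Suv39h2 (0.071) came nearest to Esrp1, and Zfp369 (0.011) and Rlim (0.044) to Esrp2. Vps36 (0.043) and Cct2 (0.047) were nearest to Cdh2, and Egflam (0.065) and Prex2 (0.091) to Zeb2. The profile of Vim had no match as close, with Spp1 at 0.40 and Slit2 at 1.07.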

How the data were processed

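The authors deposited 1 table per library, 4 in all, of FPKM per gene and the bounds of each value, per the file headers. The submitters' processing notes name TopHat2, Bowtie2, Cufflinks, Cuffdiff and build mm10. Their versions, the annotation and the strandedness: not given in the sources used here. Without read counts, absolute depth is unknown, and the bounds served as the guide to precision. Another table, with 2 columns of values per group that the labels do not identify, was not used. Entries were joined by symbol and position, entries of the same symbol were added (267 genes), and Rn45s, marked as failed, was left out.

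Testing was limited to genes averaging 1 FPKM or more, on log2(FPKM + 1) with limma 3.58.1 in R 4.3.3 (eBayes with trend, two-sided, Benjamini-Hochberg over 12040 genes, threshold 0.05, 2 residual degrees of freedom), after a check on simulated data. Adding 1 understates differences of low genes. Intervals are those of the limma model. The members and lists were chosen with earlier results of these data known. Named genes are the members, Sox2, up to 3 calls with the largest difference per list, or the 2 most abundant genes where none passed, and the 2 nearest profiles per member. Ctnna1, Ctnnb1, Rbm47, Fgfr2, Cd44, Cdh4, St14, Zeb2os, Col1a1 and Fn1 were named after their values were seen. The cell type markers given singly, among them Esam, Sparc, Csf1r, Msln, Dapl1, Trp63 and Krt15, also lie outside that rule. Alternatives changed 1 choice at a time. With 1 library left out, a group holds 1 library, so p-values and counts of calls are not given for those fits. Sequences and gene models came from RefSeq (GRCm38.p6) and GENCODE; motif and seed matches were exact. One listed gene is not reported here.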

Additional observations from a re-analysis of the deposited data

How the results depend on the processing

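With 4 libraries and unknown depth, low genes such as Zeb1, Zeb2 and Cdh2 are measured least precisely. Among the 8 genes the direction changed for Vim alone, which ran from -2.23 to 1.02 with 1 library left out. It was 0.16 with labelled Sox2 replicate 2 left out and 1.02 with labelled control replicate 1 left out. Of the genes named for a profile like that of Vim, Spp1 ran from -1.84 to 0.99 (0.48 with labelled Sox2 replicate 2 left out) and Slit2 from -1.82 to 0.042. Of the 506 genes higher and 976 lower, testing genes of any level left 0 and 3 by limma (1251 and 2618 at an unadjusted p under 0.05). Median-of-ratios rescaling gave 964 higher and quantile normalization 980. Leaving out 1 library gave 119 to 837 higher and 115 to 1312 lower. Of the members, 2 were lower. That count was 0 when genes of any level were tested (2 at an unadjusted p under 0.05) and 1 under the variance model without trend. None was higher by limma, at an adjusted p or at an unadjusted p under 0.05. Which members were called also changed with the library left out. Differences of the log2 ratios with 1 library left out ran from -0.17 to 0.83 for Cdh1 over Cdh2, from -2.91 to 0.37 for Epcam over Vim and from -0.51 to 0.081 for Zeb1 over Zeb2. The ratio of Esrp1 to Zeb1 moved to -2.88 with 0.1 added. The cause of these changes was not tested.

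The labels number replicates 1 and 2 in both groups without saying that a number pairs them. The deviations of the same-numbered libraries correlated at r = 0.23 over 12040 genes, with only 2 pairs. A fit with the replicate number as a block gave 1142 higher and 2730 lower genes, 1 higher member (Zeb2, limma adjusted p = 0.0238) and the same 2 lower members, Epcam and Esrp1. Under the block, 8 of the other splicing regulators (0 without it) and 5 of the ZEB corepressor partners (1 without it) were lower.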
